A study of Mus musculus with 12 samples.

Results

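The complement genes are 9 genes of the classical and alternative pathways of complement: C1qa, C1qb, C1qc, C1s1, C4b, C3, Cfb, Cfi and Cd55. They were chosen by symbol as a list of components and regulators, and all 9 were found among the 32047 genes of the deposited table. RNA was sequenced from the kidneys of mice in 12 libraries, 4 in each of 3 groups. NC is a control group whose name the labels do not expand, and nothing states that it received a vector or an injury. AKI_A_mcherry is named for acute kidney injury and for mCherry, a red fluorescent protein. AKI_A_FGF23_R176QR179Q, called the variant FGF23 group below, is named for the same injury and for FGF23, a bone hormone that lowers phosphate reabsorption in the kidney, carrying the substitutions R176Q and R179Q. Per the series' design text the variant was overexpressed, and rhabdomyolysis, in which damaged muscle releases its contents into the blood, was used to injure the kidney 3 weeks later.

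The labels give neither strain, sex nor age of the mice, nor the vector, the agent of injury, the time of collection or the meaning of the letter A. Whether each library came from its own mouse is not stated either, and p-values therefore cover the spread between libraries, which may be technical. No uninjured group with mCherry or with the FGF23 variant is among the libraries, so that injury and overexpression cannot be told apart in the comparisons with NC. Fgf23 RNA read 4.57 to 7.33 CPM (counts scaled to the size of the library) in the 4 libraries of the variant FGF23 group and 0 in the other 8. The 5 tubular injury markers summed to 14 to 23.0 CPM in NC, 4094 to 5039 in AKI_A_mcherry and 691.5 to 2131 in the variant FGF23 group. The 7 kidney tubule markers summed to at least 4387.7 CPM in every library. Totals ran from 55324078 to 70638283 counts per library, and CPM values were scaled with TMM factors over the 12 libraries. Those factors were 1.11 to 1.13 in the variant FGF23 group, 0.901 to 1.03 in AKI_A_mcherry and 0.888 to 0.925 in NC.

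Complement is a cascade of plasma proteins that marks cells and debris for removal and can open pores in membranes. In the classical pathway, C1q, built of the chains encoded by C1qa, C1qb and C1qc, binds its target, and the proteases C1r and C1s attached to it cut C4 and C2. In the alternative pathway, factor B (Cfb) joins with activated C3 into an enzyme that cuts further C3, the protein on which the pathways converge. Factor I (Cfi) degrades activated C3 and C4 with the help of cofactors, and Cd55, decay accelerating factor, takes the C3-cutting enzymes apart on the cell surface. The liver makes most complement in plasma, C1q is made mainly by macrophages and related myeloid cells, and tubular cells of the kidney can make C3 and factor B.

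The starts of 5 of the 9 genes were matched in RefSeq's promoter table (GRCm38.p6): C1qb, C1qc, C1s1, C3 and Cd55. The 250 bases before the start are printed for C3, which rose in the injured groups, for C1s1, which moved in both directions, and for C1qb and C1qc, which lie next to each other. Each is written 5′ to 3′ on the strand of the gene, and capitals mark matches to the motifs searched.
C3, chr17:57228137-57228386, minus strand: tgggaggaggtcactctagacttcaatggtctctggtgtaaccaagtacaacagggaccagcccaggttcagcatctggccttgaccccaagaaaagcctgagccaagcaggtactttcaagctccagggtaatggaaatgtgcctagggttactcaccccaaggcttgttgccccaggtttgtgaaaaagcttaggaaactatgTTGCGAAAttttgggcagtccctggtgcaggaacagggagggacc
C1s1, chr6:124542360-124542609, minus strand: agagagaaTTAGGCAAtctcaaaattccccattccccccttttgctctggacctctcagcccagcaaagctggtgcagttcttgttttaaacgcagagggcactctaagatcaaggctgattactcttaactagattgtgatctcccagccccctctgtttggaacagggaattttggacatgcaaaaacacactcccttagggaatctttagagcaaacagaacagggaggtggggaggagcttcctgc
C1qb, chr4:136886201-136886450, minus strand: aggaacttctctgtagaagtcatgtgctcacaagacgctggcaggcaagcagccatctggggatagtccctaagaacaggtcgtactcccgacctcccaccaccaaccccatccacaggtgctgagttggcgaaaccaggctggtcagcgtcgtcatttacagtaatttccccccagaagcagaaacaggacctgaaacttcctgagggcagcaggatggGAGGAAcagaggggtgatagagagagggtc
C1qc, chr4:136892915-136893164, minus strand: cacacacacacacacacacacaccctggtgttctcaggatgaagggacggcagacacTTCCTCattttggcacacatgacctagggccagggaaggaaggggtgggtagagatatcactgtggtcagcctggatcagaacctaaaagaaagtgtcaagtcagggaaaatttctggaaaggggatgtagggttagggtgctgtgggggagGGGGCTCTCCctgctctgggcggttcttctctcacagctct

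The motifs searched, on both strands, were a C/EBP motif (TTGCNNAA), a PU.1 motif (GAGGAA), a STAT motif (TTCNNNGAA), the interferon response motif ISRE and the NF-kB motif. C/EBP proteins, STAT proteins and NF-kB act in the acute phase response, and PU.1 is a factor of myeloid cells. The C3 window held the C/EBP motif 45 to 38 bases before the start. In C1s1 it stood on the minus strand 242 to 235 bases before the start, and 9.56% of 32851 promoter windows of the same length hold it. C1qb and C1qc each held the PU.1 motif, at 30 to 25 and at 193 to 188 bases before the start, the latter on the minus strand, and 23.3% of all windows hold that motif. The NF-kB motif was found in C1qc, 41 to 32 bases before the start, as in 3.9% of windows. The STAT and interferon motifs, present in 7.02% and 2.98% of windows, were in none of the 5 windows, and the Cd55 window held none of the 5 motifs. A match is a run of letters and not a binding site.

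Across the 3 groups the members did not move as a set. C3 was higher in both injured groups than in NC, Cfb and Cd55 were lower in both, and C1s1 was lower in AKI_A_mcherry. C1s1, Cfb and Cfi were higher in the variant FGF23 group than in AKI_A_mcherry, and Cd55 was lower. The C1q chains and C4b did not pass the test between AKI_A_mcherry and NC, where their groups overlapped. Per-library values of all 9 genes are plotted in CPM.

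**Figure D1:**
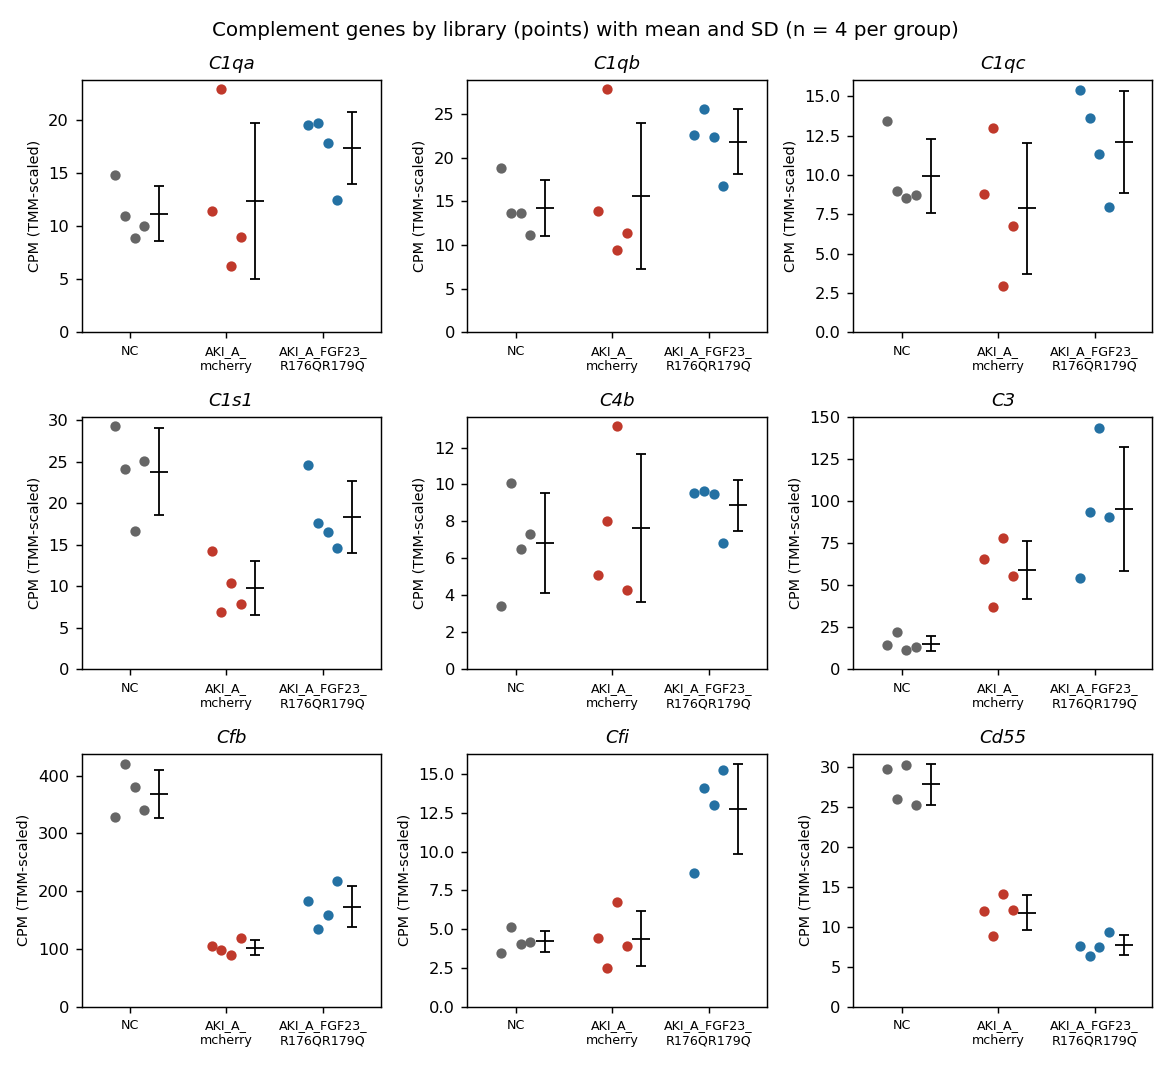
CPM of the 9 complement genes (vertical axes from 0, TMM-scaled) in NC (grey), AKI_A_mcherry (red) and the variant FGF23 group (blue). Points are libraries in the order of their replicate numbers, and bars are the mean and SD of 4 libraries. C3 lies at 11.5 to 22.1 CPM in NC and at 37.2 CPM or above in every injured library, while Cd55 lies at 25.2 CPM or above in NC and at 14.1 CPM or below in the injured ones.

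Differences between groups were tested with edgeR's quasi-likelihood F test over all genes, 8 libraries at a time, with Benjamini-Hochberg adjustment, and a gene was called at an adjusted p of at most 0.05. For AKI_A_mcherry against NC, 53.1% of the 18724 genes tested were called, 27.2% higher and 26.0% lower. Among the members 1 was higher (C3) and 3 were lower (C1s1, Cfb, Cd55), so 4 of 9 were called, a share below the background. The same 4 had groups without overlap in CPM, as did 51.3% of all genes tested. For the variant FGF23 group against AKI_A_mcherry, 23.1% of 18824 genes were called, 11.7% higher and 11.4% lower. Here 3 members were higher (C1s1, Cfb, Cfi) and 1 was lower (Cd55). The 3 higher ones had groups without overlap, against 28.4% of all genes. For the variant FGF23 group against NC, 42.3% of 19005 genes were called, 21.7% higher and 20.6% lower. In that comparison 4 members were higher (C1qa, C1qb, C3, Cfi) and 2 were lower (Cfb, Cd55). The groups did not overlap for 4 of them (C3, Cfi, Cfb, Cd55), against 41.7% of all genes. The members' median log2 fold changes were 0.06, 0.61 and 0.36 in the 3 comparisons, against medians over all genes of -0.0026, 0.0084 and 0.011. Each pair of comparisons shares a group of 4 libraries, so calls in them are not independent of each other.

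**Figure D2:**
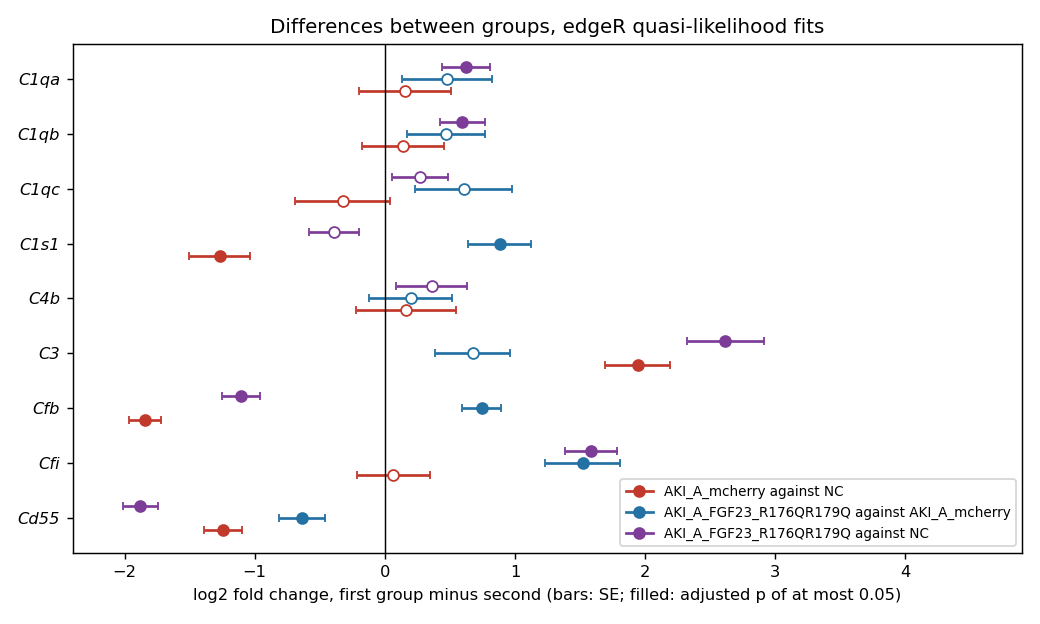
Log2 fold changes of the 9 complement genes (horizontal axis) in the 3 comparisons, with the standard error as bars. Filled points have an adjusted p of at most 0.05. C3, Cfb and Cd55 stand away from 0 in both comparisons with NC, from -1.88 for Cd55 to 2.62 for C3.

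C3, the central component, was the member that rose most against NC. It read 14.3, 22.1, 11.5 and 13.6 CPM in NC libraries 1 to 4 and 65.5, 37.2, 77.9 and 55.6 CPM in AKI_A_mcherry libraries 1 to 4. The groups did not overlap, and the lowest injured library was above the highest control. C3 was 3.84-fold higher in AKI_A_mcherry (log2 fold change 1.94, SE 0.25, edgeR adjusted p = 8.6e-05). In the variant FGF23 group C3 read 54.3, 93.4, 143.6 and 90.4 CPM in libraries 1, 2, 3 and 5, and its log2 fold change against NC was 2.62 (SE 0.29, edgeR adjusted p = 5.6e-05). Against AKI_A_mcherry the log2 difference was 0.68 (SE 0.29, edgeR adjusted p = 0.12) and did not pass, with library 1 of the variant FGF23 group inside the AKI_A_mcherry range. The tubular injury markers Havcr1 and Lcn2 differed the other way in that comparison, by -1.42 and -2.17 on the log2 scale (edgeR adjusted p = 0.015 and 0.0099).

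Cfb, which supplies the protease of the alternative pathway's C3-cutting enzyme, was the most abundant member and fell in the injured groups. It read 328, 421, 381 and 340.5 CPM in NC, 104.5, 97.1, 89.1 and 118 CPM in AKI_A_mcherry and 183, 133.5, 158 and 217 CPM in the variant FGF23 group. No 2 groups overlapped, with NC highest, the variant FGF23 group between and AKI_A_mcherry lowest. Cfb was 3.59-fold lower in AKI_A_mcherry than in NC (log2 fold change -1.84, SE 0.12, edgeR adjusted p = 9.8e-07). It was 1.67-fold higher in the variant FGF23 group than in AKI_A_mcherry (log2 fold change 0.74, SE 0.15, edgeR adjusted p = 0.0077). Against NC the variant FGF23 group was 2.15-fold lower (log2 fold change -1.11, SE 0.15, edgeR adjusted p = 0.00019). In a GRCm38 transcript set (GENCODE M21), 61.8% of the 150-base windows of Cfb also occur in Gm20547, a gene model that overlaps it on the same strand and is not analysed here. Reads of the 2 gene models cannot be told apart in those windows.

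C2, the classical counterpart and neighbour of Cfb on chromosome 17, showed the same order of groups. It read 25.1, 40.1, 38.7 and 34.2 CPM in NC, 12.3, 8.47, 7.84 and 10.5 CPM in AKI_A_mcherry and 23.9, 17.5, 16.6 and 23.3 CPM in the variant FGF23 group. C2 fell in AKI_A_mcherry against NC (log2 fold change -1.82, SE 0.19, edgeR adjusted p = 1.9e-05) and was higher in the variant FGF23 group than in AKI_A_mcherry (1.04, SE 0.18, edgeR adjusted p = 0.0041). In the authors' FPKM values, which are scaled by gene length, Cfb stood at 13.5 to 18.0 times the level of C2 in NC, 11.6 to 15.8 times in AKI_A_mcherry and 10.5 to 13.1 times in the variant FGF23 group. The ranges of NC and the variant FGF23 group did not overlap. The genes most like Cfb over the 12 libraries, by the root mean square (RMS) difference of centred log2(CPM + 1) among 11045 genes, were Slc1a1 (0.145), Tinag (0.160) and Gpc4 (0.163). The RMS deviation of Cfb itself was 0.779 on that scale. Slc1a1, a glutamate transporter, had means of 301, 81.5 and 140.1 CPM in NC, AKI_A_mcherry and the variant FGF23 group. The summed kidney tubule markers had the same order of groups, with 13346 to 15112 CPM in NC, 4388 to 4761 in AKI_A_mcherry and 7259 to 9091 in the variant FGF23 group. By mean, Lrp2, Cubn, Slc34a1 and Slc12a1 had this order, and the other markers did not. In NC, AKI_A_mcherry and the variant FGF23 group, Umod averaged 5003, 3063 and 5362 CPM. Slc12a3 averaged 873, 513 and 923 CPM, and Aqp2 194, 314 and 159 CPM. The part of tubule cells in the Cfb result was not tested. In whole tissue, fewer cells of a type and less RNA per cell cannot be told apart.

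C1s1 encodes the C1s protease that cuts C4 and C2. It read 29.3, 24.2, 16.7 and 25.1 CPM in NC, 14.2, 6.88, 10.4 and 7.89 CPM in AKI_A_mcherry and 24.6, 17.7, 16.6 and 14.6 CPM in the variant FGF23 group. AKI_A_mcherry lay below both other groups without overlap, and the variant FGF23 group overlapped NC. C1s1 was 2.41-fold lower in AKI_A_mcherry than in NC (log2 fold change -1.27, SE 0.24, edgeR adjusted p = 0.0011). It was 1.84-fold higher in the variant FGF23 group than in AKI_A_mcherry (log2 fold change 0.88, SE 0.24, edgeR adjusted p = 0.026), and against NC the difference was -0.39 (SE 0.19, edgeR adjusted p = 0.13). The call against AKI_A_mcherry held in 4 of 8 fits that left out 1 library. It was lost without variant FGF23 library 1 (0.71, edgeR adjusted p = 0.079), variant FGF23 library 2 (0.90, 0.056), AKI_A_mcherry library 2 (0.75, 0.058) and AKI_A_mcherry library 4 (0.79, 0.066). Against NC, a fall was called without variant FGF23 library 1 (-0.56, edgeR adjusted p = 0.027) or NC library 3 (-0.53, 0.035).

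C1ra, the partner protease and neighbour of C1s1 on chromosome 6, and Serping1, the C1 inhibitor that blocks both proteases, had the same order of groups. C1ra read 9.92 to 15.1 CPM in NC, 5.43 to 7.58 in AKI_A_mcherry and 8.97 to 13.6 in the variant FGF23 group, with log2 fold changes of -0.90 for AKI_A_mcherry against NC and 0.68 for the variant FGF23 group against AKI_A_mcherry (edgeR adjusted p = 0.0012 and 0.018). For Serping1 the ranges were 40.7 to 66.1, 12.7 to 26.7 and 31.1 to 59.3 CPM, with log2 fold changes of -1.37 and 1.12 (edgeR adjusted p = 0.00046 and 0.011). For both genes AKI_A_mcherry lay below the other groups without overlap. The genes most like C1s1 over the 12 libraries were Clec14a (RMS difference 0.150), Islr (0.165) and Cd300lg (0.183), against an RMS deviation of C1s1 of 0.595. Fibroblast markers had no common direction beside C1s1 in AKI_A_mcherry against NC. Dcn read 25.5 to 53.0 CPM in NC, 4.74 to 11.5 in AKI_A_mcherry and 18.2 to 46.6 in the variant FGF23 group, and Pdgfra 24.6 to 40.7, 6.59 to 20.4 and 30.8 to 42.4. Of the 7 fibroblast markers, 3 fell (Pdgfra, Dcn, Lum), 2 rose (Col1a1 by 1.25 and Col3a1 by 1.36 on the log2 scale) and 2 did not pass (Col1a2, Pdgfrb) in AKI_A_mcherry against NC. In the variant FGF23 group against AKI_A_mcherry, 3 were higher (Pdgfra, Dcn, Lum), as C1s1 was, none was lower and 4 did not pass. Their sum was 213 to 296 CPM in NC, 156.5 to 518 in AKI_A_mcherry and 443 to 484 in the variant FGF23 group, and no marker was at 0 in a whole group. The 7 endothelial markers summed to 298 to 372, 204 to 321 and 352 to 463 CPM. In AKI_A_mcherry against NC, 2 of them fell (Cdh5, Tie1), none rose and 5 did not pass. In the variant FGF23 group against AKI_A_mcherry, 3 were higher (Pecam1, Cdh5, Tie1), none was lower and 4 did not pass. The part of these cells in the C1s1 result was not tested. C1s1 shares 2.46% of its 150-base windows with C1s2 and overlaps the antisense model Gm16567, which is not analysed here.

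The C1q chains, whose genes stand in a row on chromosome 4 in the order C1qb, C1qc and C1qa, moved together from library to library. C1qa read 14.8, 11.01, 8.92 and 10 CPM in NC, 11.4, 23.0, 6.23 and 8.98 CPM in AKI_A_mcherry and 19.5, 19.7, 17.9 and 12.5 CPM in the variant FGF23 group. C1qb read 18.8, 13.6, 13.7 and 11.1 CPM, then 13.9, 27.9, 9.42 and 11.4 CPM, then 22.6, 25.6, 22.4 and 16.8 CPM. C1qc read 13.4, 8.97, 8.53 and 8.72 CPM, then 8.81, 12.98, 2.96 and 6.76 CPM, then 15.4, 13.6, 11.3 and 7.94 CPM. AKI_A_mcherry library 2 was the highest of its group in all 3 chains and AKI_A_mcherry library 3 the lowest, and the groups overlapped for each chain in every comparison. C1qa and C1qb were each other's nearest gene among the 11045 (RMS difference 0.117, against deviations of 0.503 and 0.462). For C1qc the nearest were Laptm5, a lysosomal membrane protein of blood cells (0.226), Ddr2 (0.238) and C1qa (0.244). Rcn3 and Mrc2 came next after the partner chain for C1qa (0.157 and 0.170) and for C1qb (0.138 and 0.185).

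None of the C1q chains passed the test between AKI_A_mcherry and NC, with log2 fold changes of 0.16 for C1qa, 0.14 for C1qb and -0.33 for C1qc (edgeR adjusted p = 0.73, 0.74 and 0.48). Without AKI_A_mcherry library 2 the values for C1qa and C1qb changed sign, to -0.33 and -0.30, and did not pass. Against AKI_A_mcherry the variant FGF23 group differed by 0.48, 0.47 and 0.61 (edgeR adjusted p = 0.34, 0.29 and 0.27). Without AKI_A_mcherry library 2, C1qa and C1qb were called higher in that comparison (0.96 and 0.90, edgeR adjusted p = 0.024 and 0.012), as they were with limma-voom and quality weights (0.78 and 0.76, limma adjusted p = 0.043 and 0.026). Against NC, C1qa rose by 0.62 and C1qb by 0.60 on the log2 scale in the variant FGF23 group (SE 0.19 and 0.17, edgeR adjusted p = 0.021 and 0.018), and C1qc did not pass (0.27, edgeR adjusted p = 0.35). Both calls were lost with all 12 libraries in 1 fit (edgeR adjusted p = 0.16 and 0.13). Leaving out 1 library kept the C1qa call in 3 of 8 fits and the C1qb call in 7 of 8. The call of C1qa was lost without variant FGF23 library 1 (edgeR adjusted p = 0.051) or 2 (0.060), or NC library 2 (0.051), 3 (0.059) or 4 (0.060), and that of C1qb without variant FGF23 library 2 (0.056).

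Macrophage markers did not follow a common direction beside the C1q chains. Of the 15 markers tested, 3 rose in AKI_A_mcherry against NC (Cd68, Cd14, Fcgr1) and 3 fell (Csf1r, Adgre1, Cx3cr1). Csf1r, the receptor on which most tissue macrophages depend, read 74.4 to 91.3 CPM in NC, 19.1 to 28.7 in AKI_A_mcherry and 32.3 to 44.6 in the variant FGF23 group. Cd68, a lysosomal protein, read 1.76 to 3.52, 25.8 to 56.6 and 10.03 to 19.4 CPM, so that these 2 markers ordered the groups in opposite ways. In the variant FGF23 group against AKI_A_mcherry, 2 markers rose (Csf1r, Cx3cr1) and 3 fell (Cd68, Cd14, Lyz2). The 15 markers summed to 145 to 189 CPM in NC, 185 to 312 in AKI_A_mcherry and 126 to 175.95 in the variant FGF23 group, against 29.8 to 47.0, 18.6 to 63.8 and 37.2 to 59.0 CPM for the 3 C1q chains. AKI_A_mcherry library 2 held the highest sum of both. No macrophage marker was at 0 in a whole group, and the part of macrophages in the C1q values was not tested.

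**Figure D3:**
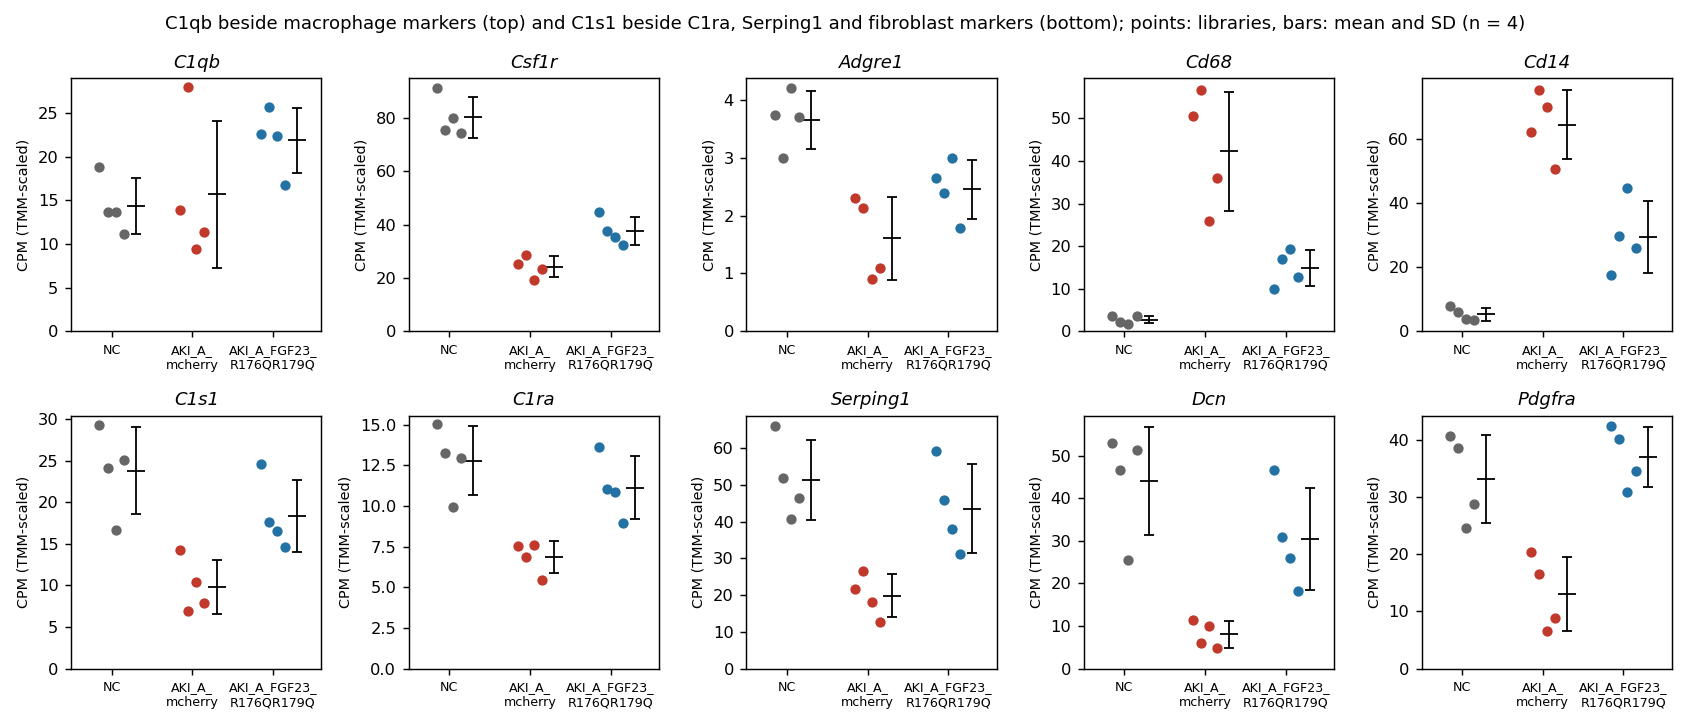
CPM by library (vertical axes from 0) of C1qb beside macrophage markers and of C1s1 beside C1ra, Serping1 and fibroblast markers in NC, AKI_A_mcherry and the variant FGF23 group, with mean and SD of 4 libraries. Csf1r and Cd68 order the groups in opposite ways, and C1ra, Serping1, Dcn and Pdgfra are lowest in AKI_A_mcherry, as is C1s1. Of the fibroblast markers, Col1a1 and Col3a1, which rose in AKI_A_mcherry against NC, are not drawn.

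C4b, the C4 component that C1s cuts, had the lowest mean level per length of the members and passed the test in no comparison. It read 3.43, 10.1, 6.54 and 7.30 CPM in NC, 5.10, 8.01, 13.2 and 4.28 CPM in AKI_A_mcherry and 9.52, 9.65, 9.50 and 6.83 CPM in the variant FGF23 group. The groups overlapped throughout. Its log2 differences were 0.16 for AKI_A_mcherry against NC, 0.20 for the variant FGF23 group against AKI_A_mcherry and 0.36 for the variant FGF23 group against NC (SE 0.39, 0.32 and 0.27, edgeR adjusted p = 0.75, 0.68 and 0.33). Its nearest genes, Ighmbp2, Zfp13 and Trmt44, lay at RMS differences of 0.310, 0.311 and 0.330, large beside its own deviation of 0.466. C4b shares 7.48% of its 150-base windows with C4a, whose log2 fold change against NC was -1.17 in AKI_A_mcherry and -1.30 in the variant FGF23 group (edgeR adjusted p = 0.0084 and 0.0029), so reads in those windows may be split between the genes. C4a averaged 2.10 CPM in NC.

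Cfi, the protease that inactivates C3b and C4b, was higher in the variant FGF23 group than in either other group. It read 3.43, 5.12, 4.04 and 4.19 CPM in NC, 4.41, 2.51, 6.73 and 3.88 CPM in AKI_A_mcherry and 8.63, 14.1, 12.98 and 15.2 CPM in the variant FGF23 group. NC and AKI_A_mcherry overlapped, with a log2 difference of 0.06 (SE 0.28, edgeR adjusted p = 0.86), and every library of the variant FGF23 group was above both. Cfi was 2.87-fold higher in the variant FGF23 group than in AKI_A_mcherry (log2 fold change 1.52, SE 0.29, edgeR adjusted p = 0.0063) and 3.00-fold higher than in NC (1.58, SE 0.20, edgeR adjusted p = 0.00011). With replicate number added to the fit, the call against AKI_A_mcherry was lost (edgeR adjusted p = 0.0501). The genes nearest to Cfi were Dnajb9 (RMS difference 0.271), Scube3 (0.336) and Atf6 (0.367), against its own deviation of 0.720. Dnajb9, a chaperone of the endoplasmic reticulum, averaged 45.2 CPM in NC, 64.0 in AKI_A_mcherry and 143 in the variant FGF23 group. Atf6, a sensor of unfolded protein in that compartment, averaged 54.8, 61.2 and 99.8 CPM, and Scube3 8.12, 5.69 and 15.6 CPM. Unlike Cfi, Dnajb9 was also called higher in AKI_A_mcherry than in NC (log2 fold change 0.50, edgeR adjusted p = 0.030).

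Cd55, the membrane regulator, fell in both injured groups. It read 29.8, 26.0, 30.3 and 25.2 CPM in NC, 11.9, 8.87, 14.1 and 12.04 CPM in AKI_A_mcherry and 7.54, 6.29, 7.47 and 9.33 CPM in the variant FGF23 group. NC lay above both injured groups without overlap, and the injured groups overlapped at AKI_A_mcherry library 2 and variant FGF23 library 5. Cd55 was 2.36-fold lower in AKI_A_mcherry than in NC (log2 fold change -1.24, SE 0.14, edgeR adjusted p = 4.4e-05) and 3.68-fold lower in the variant FGF23 group (-1.88, SE 0.13, edgeR adjusted p = 2.8e-06). Against AKI_A_mcherry, Cd55 was 1.55-fold lower in the variant FGF23 group (-0.63, SE 0.18, edgeR adjusted p = 0.028), the opposite direction to Cfb, Cfi and C1s1. That call was lost with scaling by library totals alone (-0.44, edgeR adjusted p = 0.13) and with replicate number added to the fit. It was also lost when variant FGF23 library 1 (edgeR adjusted p = 0.075), 2 (0.078) or 3 (0.056), or AKI_A_mcherry library 1 (0.051), 3 (0.070) or 4 (0.058) was left out. Cd55 shares 2.11% of its 150-base windows with Cd55b, and its antisense neighbour Gm16083 had 0 to 5 counts per library. The nearest genes were Acads (0.215), Vill (0.228) and Entpd4 (0.234), against a deviation of 0.748. Acads, an enzyme of short-chain fatty acid oxidation, averaged 290.1 CPM in NC, 116 in AKI_A_mcherry and 83.9 in the variant FGF23 group. For C3 the nearest were Cyp3a13 (0.298), Snx10 (0.345) and Sema3e (0.354), against a deviation of 1.14.

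Levels were compared between genes by the authors' FPKM values, which are scaled by gene length and without TMM factors. Cfb was the highest member in each group, with 108.5 ± 14.6 FPKM in NC, 32.7 ± 4.82 in AKI_A_mcherry and 63.2 ± 13.4 in the variant FGF23 group (SD, n = 4), and its range did not overlap that of the next gene, C1qb. In NC the order after Cfb was C1qb at 10.9 ± 2.47, C1qa at 8.95 ± 2.05, C1s1 at 6.32 ± 1.36, Cd55 at 4.76 ± 0.468, C1qc at 4.26 ± 0.999, C3 at 2.50 ± 0.803, Cfi at 1.57 ± 0.286 and C4b at 1.00 ± 0.410. Each of these 8 overlapped its neighbour in the order. In AKI_A_mcherry C3, at 10.5 ± 3.49, stood between C1qb and C1qa by mean, and Cd55, at 2.20 ± 0.515, between C1s1 and Cfi. Both C3 and Cd55 overlapped the genes above and below them there, and C1qa had nearly the same mean as C3 (10.49). In the variant FGF23 group C3 stood at 19.2 ± 7.39, Cfi at 5.92 ± 1.34, and Cd55 at 1.62 ± 0.276 followed without overlapping Cfi. C4b had the lowest mean in all 3 groups, at 1.21 ± 0.668 in AKI_A_mcherry and 1.60 ± 0.243 in the variant FGF23 group. In each group its range overlapped that of the gene above it.

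**Figure D4:**
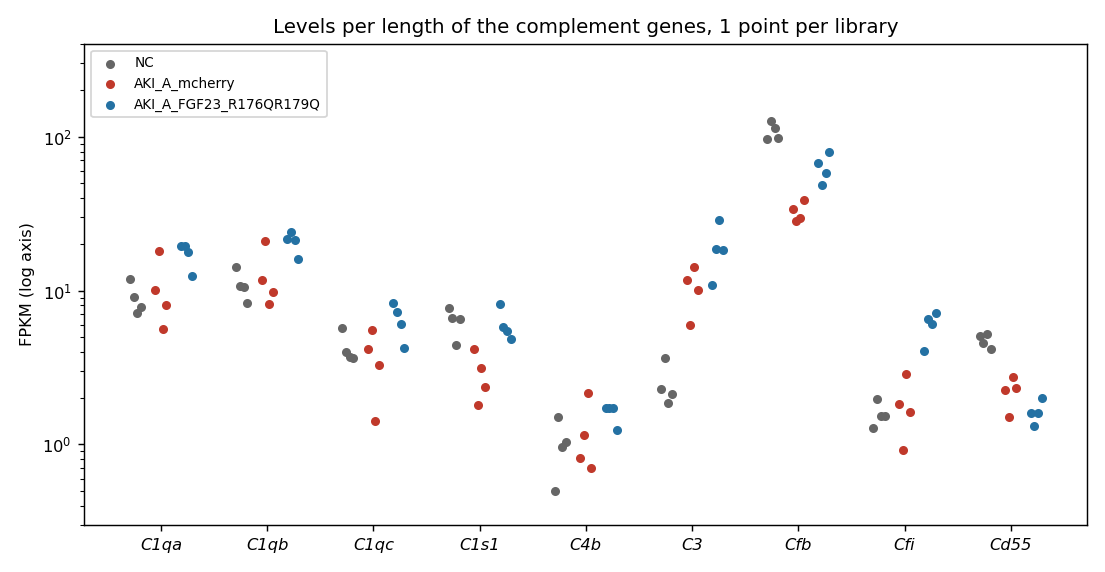
FPKM of the 9 complement genes on a log axis, with 1 point for each of 12 libraries and colours for NC, AKI_A_mcherry and the variant FGF23 group. Cfb is highest throughout, at 96.0 to 127 FPKM in NC and 28.2 to 38.9 in AKI_A_mcherry, and C3 moves from 1.87 to 3.67 FPKM in NC to 10.9 to 28.9 in the variant FGF23 group.

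The balance between C3 and its partner and regulators differed between the groups by these FPKM values. The ratio of C3 to Cfb was 0.0166 to 0.0289 in NC, 0.211 to 0.480 in AKI_A_mcherry and 0.163 to 0.499 in the variant FGF23 group. Both injured groups were above NC and overlapped each other. The ratio of C3 to Cd55 was 0.358 to 0.803 in NC, 3.96 to 5.20 in AKI_A_mcherry and 6.83 to 18.2 in the variant FGF23 group, with no overlap between any groups. The ratio of C3 to Cfi was 1.22 to 1.87 in NC, 5.00 to 6.46 in AKI_A_mcherry and 2.57 to 4.78 in the variant FGF23 group, again without overlap but with AKI_A_mcherry highest. The chains of C1q kept closer to each other, with C1qa at 0.682 to 0.941 of C1qb over the 3 groups. C1qc stood at 0.351 to 0.442 of C1qb in NC, 0.176 to 0.357 in AKI_A_mcherry and 0.267 to 0.384 in the variant FGF23 group. A ratio of RNA levels says nothing of protein.

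The rest of the pathway was read from a list of 50 other complement genes in 7 roles, of which 48 were found. For AKI_A_mcherry against NC, 36 passed the filter on low counts, 7 rose and 18 fell, beside 27.2% higher and 26.0% lower over all genes, with a median log2 fold change of -0.73. For the variant FGF23 group against AKI_A_mcherry, 16 of 37 rose and 3 fell, beside 11.7% and 11.4% over all genes, with a median of 0.59. The 16 became 8 without variant FGF23 library 1 and 9 without variant FGF23 library 2. For the variant FGF23 group against NC, 9 of 39 rose and 7 fell, beside 21.7% and 20.6%, with a median of 0.24. In the classical pathway all 5 other genes (C1ra, C1rb, C1s2, C2, C4a) fell in AKI_A_mcherry against NC, and all but C4a were higher in the variant FGF23 group than in AKI_A_mcherry. Of these, C1rb, C1s2 and C4a were low, with means of 0.93, 0.37 and 2.10 CPM in NC and 0.31, 0.16 and 0.93 in AKI_A_mcherry. C1s2 had 8 to 12 counts in the AKI_A_mcherry libraries, and for C1rb AKI_A_mcherry and NC overlapped. In the lectin pathway 3 of 5 genes tested fell in AKI_A_mcherry and none rose. Mbl1, which recognises sugars on microbes and injured cells, read 2.78 to 6.26 CPM in NC, 0.456 to 1.57 in AKI_A_mcherry and 3.57 to 6.24 in the variant FGF23 group, with log2 fold changes of -2.15 and 2.39 (edgeR adjusted p = 0.0014 and 0.0028). Masp2, a protease of that pathway, fell against NC in AKI_A_mcherry and in the variant FGF23 group (-2.23 and -1.90, edgeR adjusted p = 0.0040 and 0.0044). Between the injured groups it did not pass (0.33, edgeR adjusted p = 0.64). Its level was low, with means of 1.65 CPM in NC, 0.35 in AKI_A_mcherry and 0.44 in the variant FGF23 group.

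In the alternative pathway Cfp, properdin, which stabilises the C3-cutting enzyme, rose in AKI_A_mcherry against NC. It read 1.54 to 3.15 CPM in NC, 4.77 to 9.15 in AKI_A_mcherry and 3.09 to 3.54 in the variant FGF23 group. Cfp was higher in AKI_A_mcherry than in NC (log2 fold change 1.49, edgeR adjusted p = 0.0014) and lower in the variant FGF23 group than in AKI_A_mcherry (-0.99, edgeR adjusted p = 0.013). For the variant FGF23 group against NC it did not pass (0.50, edgeR adjusted p = 0.10). Of 6 membrane regulators tested beside Cd55, 4 fell and none rose in AKI_A_mcherry, and in the variant FGF23 group against AKI_A_mcherry 4 rose and none fell, so that Cd55 went the other way. Among these Csmd1 had 0 counts in the 4 AKI_A_mcherry libraries and was at least 10.98-fold lower there than in NC, against a floor of 3 counts per library. Csmd1 was low in NC too, with a mean of 0.56 CPM and 21 to 48 counts per library. Counting it at that bound left the medians of the pathway as given.

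Clu, clusterin, which binds terminal complement complexes and is also a marker of tubular injury, had the largest rise against NC of the other complement genes named. It read 257 to 313 CPM in NC, 5600 to 6951 in AKI_A_mcherry and 942 to 3682 in the variant FGF23 group. The log2 fold changes were 4.45 for AKI_A_mcherry against NC, -1.44 for the variant FGF23 group against AKI_A_mcherry and 3.00 for the variant FGF23 group against NC (edgeR adjusted p = 2.9e-08, 0.013 and 5.6e-05). Among the terminal components C8a read 30.4 to 39.0 CPM in NC, 1.04 to 1.85 in AKI_A_mcherry and 3.07 to 6.46 in the variant FGF23 group, with log2 fold changes of -4.55, 1.64 and -2.91 (edgeR adjusted p = 9.0e-08, 0.0039 and 3.0e-06). C8g, which pairs with it in the C8 protein, fell against NC in AKI_A_mcherry and in the variant FGF23 group by 1.79 and 1.40 on the log2 scale (edgeR adjusted p = 4.5e-05 and 0.00013). C7 was higher in the variant FGF23 group, at 10.2 to 15.1 CPM, than in AKI_A_mcherry at 0.975 to 3.85 and NC at 3.23 to 7.10, with log2 fold changes of 2.54 and 1.36 (edgeR adjusted p = 0.0016 and 0.0014). Every variant FGF23 library was above all libraries of the other groups.

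Of the receptors, 3 of 8 tested rose in AKI_A_mcherry against NC and 1 fell. C5ar1, the receptor for the C5a fragment, read 0.291 to 0.762 CPM in NC, 1.54 to 4.94 in AKI_A_mcherry and 2.20 to 3.76 in the variant FGF23 group, and rose against NC by 2.64 and 2.37 on the log2 scale (edgeR adjusted p = 0.00038 and 0.00025). Itgam, a chain of complement receptor CR3 on myeloid cells, rose against NC by 2.57 and 1.57 (edgeR adjusted p = 0.00094 and 0.0039). C1qbp, a mitochondrial protein that can bind C1q, rose against NC by 0.55 in AKI_A_mcherry and by 0.27 in the variant FGF23 group (edgeR adjusted p = 0.0060 and 0.012). C3ar1, the receptor for the C3a fragment, was lower in the variant FGF23 group than in NC (-0.80, edgeR adjusted p = 0.042), and Cd93 was higher (0.60, edgeR adjusted p = 0.0056). Neutrophil markers summed to 0.112 to 0.467 CPM in NC, 1.72 to 6.16 in AKI_A_mcherry and 1.12 to 3.53 in the variant FGF23 group, with Itgam and C5ar1 also made by these cells, and 2 of the 8 markers at 0 in all NC libraries. Their part in these results was not tested.

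**Figure D5:**
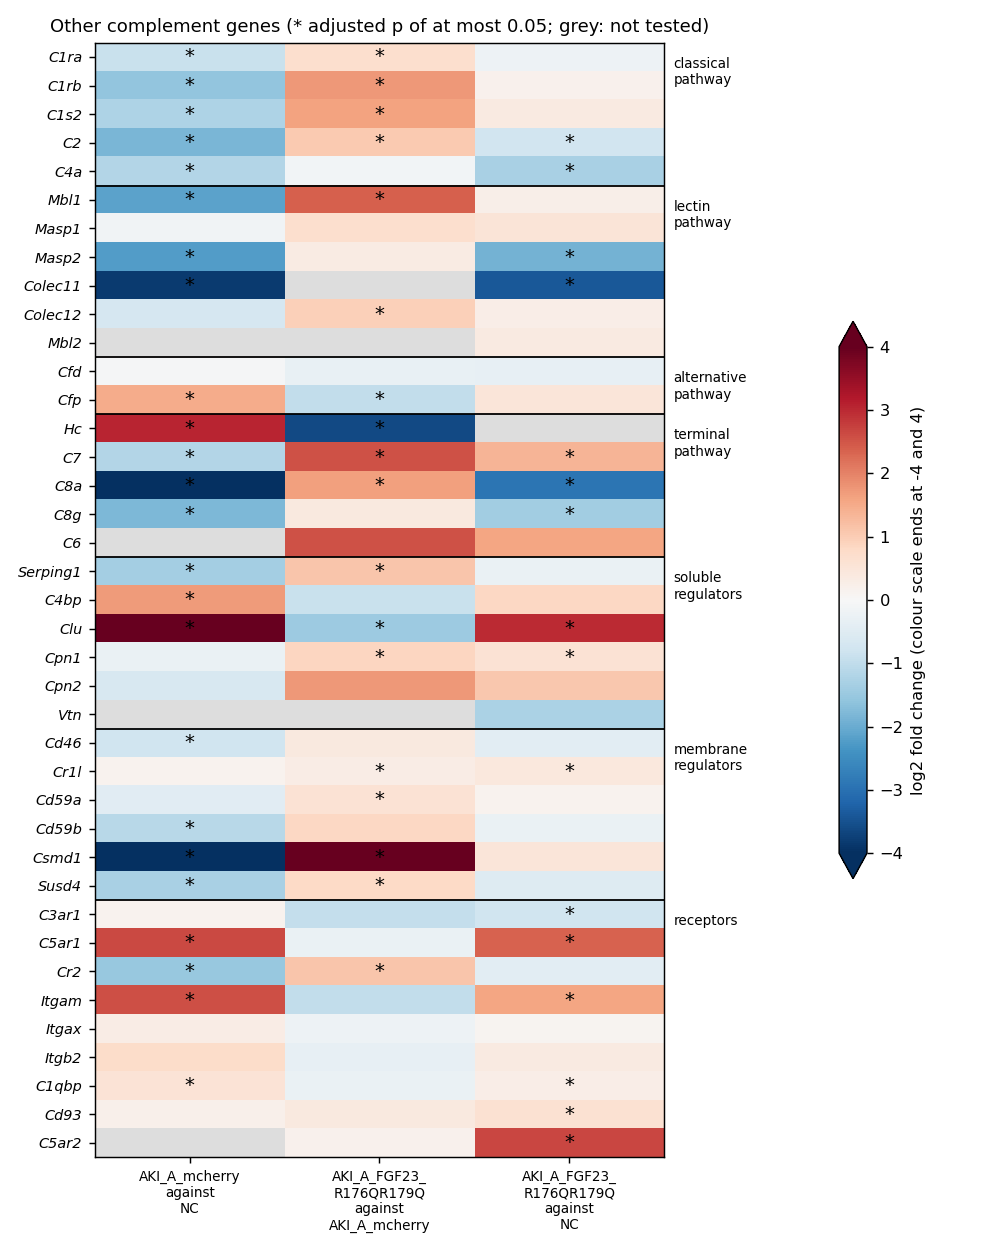
Log2 fold changes of other complement genes that were tested (not every one is shown), grouped by role, in the 3 comparisons (red higher, blue lower, colours end at -4 and 4, grey not tested, asterisks an adjusted p of at most 0.05). Most genes of the classical pathway are blue for AKI_A_mcherry against NC and red for the variant FGF23 group against AKI_A_mcherry. Csmd1, at 0 counts in AKI_A_mcherry, has a fitted value with no defined size.

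Genes that act upstream of complement transcription were read from a list of 15 on cytokines and their signalling. For AKI_A_mcherry against NC, 12 of 14 tested rose. Stat3 had means of 60.5, 217.5 and 185 CPM in NC, AKI_A_mcherry and the variant FGF23 group, and Cebpb, a C/EBP factor, 15.0, 82.3 and 65.6. Both rose in AKI_A_mcherry against NC, by 1.85 and 2.46 on the log2 scale (edgeR adjusted p = 1.9e-07 and 1.4e-06). Neither passed in the variant FGF23 group against AKI_A_mcherry (-0.25 and -0.34, edgeR adjusted p = 0.25 and 0.15). In that comparison 2 of 14 fell (Osmr, Cebpd). Of 6 liver markers tested in AKI_A_mcherry against NC, 2 rose (Fga, Fgb) and 3 fell (Ttr, Apoa1 and Apoa2, with log2 fold changes of -3.34, -1.95 and -0.81). In the variant FGF23 group against NC, 3 rose (Fga, Fgb, Apoa1) and 2 fell (Ttr, Apoa2). Fga and Fgb, which made up most of the summed level in the injured groups, had means of 19.4, 502 and 372 CPM for Fga and 0.685, 144 and 74.7 CPM for Fgb in NC, AKI_A_mcherry and the variant FGF23 group. Alb, the defining liver transcript, averaged 5.93, 9.74 and 3.86 CPM, and the 7 markers summed to 138 to 180 CPM in NC, 389 to 1030 in AKI_A_mcherry and 252.5 to 937 in the variant FGF23 group. Their part in the C3 result was not tested.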

How the data were processed

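Poly(A) RNA from kidney was made into strand-marked paired-end libraries, per the labels' protocols. The deposited table gives, per the file headers, read counts and FPKM values per gene and library. Tools named in the submitters' processing notes are edgeR, fastp and StringTie, with GRCm39 as the build. Of the aligner, annotation, versions and strand setting of counting, nothing is given in the sources used here. A count of 4 occurred 11995 times in the deposited counts, against 5847 for 3 and 3638 for 5, so counts are not taken as independent molecules. Gene symbols were paired with 31942 of 32047 identifiers. Within groups, chi-square over its degrees of freedom was 31.6 to 136 between libraries, so none was taken as a duplicate.

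For each comparison edgeR 4.0.16 in R 4.3.3 fitted its 8 libraries alone, with TMM factors and filterByExpr. The quasi-likelihood test was adjusted by Benjamini-Hochberg over all genes tested (threshold 0.05) and tested on simulated data. There it recovered 8.93%, 11.3% and 26.5% of 1.5-fold changes in the 3 comparisons, in the order given above. For 2-fold changes the shares were 46.6%, 45.2% and 61.2%, and for 4-fold changes 76.1%, 82.1% and 80%. A gene that did not pass may therefore still differ by such amounts. Tables and plots used Python 3.11.15, pandas 2.3.3 and matplotlib 3.10.9. The FPKM values the authors deposited, with means and SD, served to compare genes. Windows shared between genes came from GENCODE M21 transcripts, neighbours and promoters from RefSeq.

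The members and lists were chosen with earlier results of these data known. All 9 members are named. Other complement genes named are the up to 5 with the largest rise and fall in a comparison, among those called with a mean of at least 1 CPM, and for each member the 3 nearest genes with a mean of at least 5 CPM. Some genes counted in the lists, and a gene this rule picks, are not reported here. Other genes named in lists or as partners of a member were chosen after their values were seen. The tests were repeated with DESeq2 1.42.0 and with limma-voom (limma 3.58.1), with RLE or upper quartile factors, by library totals alone, without the filter, above a mean of 5 CPM, over 12 libraries at once, blocked by replicate number, with a log2 fold change of 1 or more also required, and without each library in turn.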

Additional observations from a re-analysis of the deposited data

Results flagged for a closer look

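In 75 sets of 4 libraries (members and named complement genes by group), 2 held a library far from the other 3, where chance gives about 1 in 20. C1qc stood at 13.4 CPM in NC library 1, with the other NC libraries between 8.53 and 8.97 CPM. C4b stood at 6.83 CPM in library 5 of the variant FGF23 group, with the others between 9.50 and 9.65 CPM.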

How the results depend on the processing

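Calls of C3, Cfb and Cd55 against NC in both injured groups, of Cfi against NC in the variant FGF23 group, of C1s1 in AKI_A_mcherry against NC and of Cfb between the injured groups held under every alternative that kept the threshold and without each library. With library totals alone the median log2 fold change of all genes moved to 0.12, 0.21 and 0.34 in the 3 comparisons, and genes called higher and lower numbered 5828 and 3958, 4060 and 1035, and 7829 and 2096, against 5088 and 4859, 2199 and 2148, and 4123 and 3912. The order of the 3 group means was the same for all 9 members by FPKM, by log2(FPKM + 1) and by CPM under either scaling.

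In AKI_A_mcherry against NC, a mean of at least 5 CPM left 2 other complement genes higher and 7 lower, and gave no value for Cfi. With limma-voom C1qa (-0.087), C1qb (-0.071), C4b (-0.34) and Cfi (-0.046) changed sign. Without AKI_A_mcherry library 2 the values for C1qa and C1qb were -0.33 and -0.30, without AKI_A_mcherry library 3 those for C4b and Cfi were -0.23 and -0.21, and without NC library 1 they were -0.061 and -0.023. Over all fits without a library C1qa ranged from -0.33 to 0.38, C1qb from -0.30 to 0.32, C4b from -0.23 to 0.41 and Cfi from -0.21 to 0.26, and none of these passed.

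In the variant FGF23 group against AKI_A_mcherry, limma-voom called 5 members higher, and requiring a log2 fold change of 1 or more called 1. No member was lower (0) with library totals alone, with the replicate block or with the added fold change, and 0 to 1 were lower without a library. Other complement genes higher numbered 9 at a mean of at least 5 CPM, 10 with the added fold change and 8 to 15 without a library. The number lower was 1 at a mean of at least 5 CPM. C4b ranged from -0.0012, without AKI_A_mcherry library 4, to 0.60 without a library.

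In the variant FGF23 group against NC, members higher numbered 2 with all 12 libraries in 1 fit and with the added fold change, and 2 to 4 without a library. C1qc was called with library totals alone (0.60, edgeR adjusted p = 0.036). Other complement genes higher numbered 15 with library totals alone and 5 with the added fold change, and 4 were lower at a mean of at least 5 CPM.

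The labels state no pairing by replicate number. Same-numbered libraries correlated in their deviations by -0.389 to 0.101, 0.0813 to 0.231 and -0.225 to -0.0989 in the 3 comparisons. Case libraries correlated best with their own number in 0 of 4, 2 of 3 and 0 of 3. Between the injured groups only 3 pairs share a number, too few to decide whether those libraries are paired. With the replicate block, in the variant FGF23 group against AKI_A_mcherry, Cfi (1.43, edgeR adjusted p = 0.0501) and Cd55 (-0.71, edgeR adjusted p = 0.057) were not called, and 9 other complement genes were higher and 1 lower. Against NC the block left 4 higher and 4 lower. The causes were not tested.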
